A study of Mus musculus with 3 samples.

Results

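The genes described here are 10 genes known for fatty acid handling in the capillaries of the adult heart, namely Fabp4, Fabp5, Gpihbp1, Cd36, Lpl, Pparg, Car4, Meox2, Tcf15 and Rbp7. They were picked by name out of 27,985 named genes of the count table, and all 10 were found. Their levels were followed across the 7 clusters that the authors assigned to the cells, and their detection together in single cells was followed within cluster 1.

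Endothelial cells were sorted from hearts of adult female mice that carry GFP, as GFP+ cells with VE-Cad and CD31 and without CD45, CD41 and the stromal receptors PDGFRB and PDGFRA. They were sequenced fresh or after 24, 48, 72 or 96 h in co-aggregates with Mesp1der PSCs, which are PDGFRA+ stromal cells of E11.5 embryos whose ancestors had expressed Mesp1 and which carry DsRed. The culture medium held serum, IL-3, SCF and Flt3L, and after culture the cells were sorted again as GFP+CD31+VE-Cad+PDGFRA- cells, this time without a gate on CD41 or CD45. All times were mixed in each of 3 pools, and no cell can be assigned to a time, so that fresh and cultured cells cannot be told apart.

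The table held 9,562 cells with 252,339,042 unique molecular identifiers (UMIs), each a captured messenger RNA molecule. Cells carried 1 of 3 library suffixes, which are not tied to the pools, and the median depth of the suffixes was 13,441 to 38,312 UMIs per cell. Between libraries, 13 barcodes were shared, which concerned 26 cells. Cluster 1 held 799 cells and was the shallowest cluster, with a median of 7,875 UMIs per cell against 14,061 to 36,066 in the other clusters. Cdh5, the gene of VE-cadherin, had a level of 9.30, 9.93 and 4.29 UMIs per 10,000 UMIs in clusters 0, 1 and 2 and of 0.503 to 0.640 in clusters 3 to 6. The latter clusters were led by other markers. Dppa5a stood at 24.6 in cluster 3, Col1a1 at 5.58 in cluster 4, C1qb at 6.98 and Mpo at 3.16 in cluster 5, and Pf4 at 166.7 in cluster 6. Because the cells had been clustered on these very counts, and no label ties a library suffix to a pool, the comparisons between clusters are descriptions and carry no P values. Levels are UMIs of a gene per 10,000 UMIs of all cells of the cluster, with 95% exact Poisson intervals that cover counting error only, and the values by library suffix show the spread.

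The heart draws much of its energy from fatty acids, which its capillary endothelium passes on from the blood to the cardiomyocytes. Lipoprotein lipase (LPL) is carried across the endothelial cell and held on its luminal face by GPIHBP1, where it frees fatty acids from triglyceride-rich particles. CD36 takes fatty acids up at the membrane and the small binding proteins FABP4 and FABP5 carry them inside the cell. The nuclear receptor PPARG and the transcription factors MEOX2 and TCF15, which form a heterodimer, drive such genes in heart endothelium. RBP7 binds retinol inside cells, and CAR4 is a carbonic anhydrase anchored to the luminal face of capillaries.

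Of the 10 genes, 5 had a promoter in the RefSeq table on GRCm38.p6. The 250 bases before the start are shown for 3 genes that share a high level in cluster 1, namely Cd36, the fatty acid receptor, Rbp7, which had the largest ratio of cluster 1 to cluster 2 among these 3, and Meox2, a transcription factor. Capitals mark matches on either strand to 4 motifs, none of which overlapped. The motif AGGTCA is the half-site bound by nuclear receptors such as PPARG. The motif TAATTA is the core bound by homeodomain proteins such as MEOX2. The motif TATAAA is that of a basal promoter element. The motif GGAAGT is the core bound by the ETS family, which is prominent in endothelium. The start used for Cd36 lies within the longer gene given by GENCODE.
Cd36, chr5:17835897-17836146, minus strand: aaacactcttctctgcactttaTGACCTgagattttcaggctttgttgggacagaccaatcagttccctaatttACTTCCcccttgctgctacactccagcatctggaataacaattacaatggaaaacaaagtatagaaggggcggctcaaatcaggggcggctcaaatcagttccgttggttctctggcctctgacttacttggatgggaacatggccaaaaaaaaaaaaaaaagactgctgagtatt
Rbp7, chr4:149454969-149455218, minus strand: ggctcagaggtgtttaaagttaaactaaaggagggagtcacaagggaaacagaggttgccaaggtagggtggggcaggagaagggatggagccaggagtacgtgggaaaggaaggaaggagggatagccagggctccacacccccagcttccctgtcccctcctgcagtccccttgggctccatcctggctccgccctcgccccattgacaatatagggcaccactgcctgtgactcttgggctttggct
Meox2, chr12:37108290-37108539, plus strand: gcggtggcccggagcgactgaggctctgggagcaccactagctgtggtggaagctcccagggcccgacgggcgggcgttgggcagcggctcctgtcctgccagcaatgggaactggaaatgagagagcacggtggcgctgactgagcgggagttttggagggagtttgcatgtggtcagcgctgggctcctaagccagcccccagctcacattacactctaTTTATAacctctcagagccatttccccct
Cd36 held 1 match to AGGTCA and 1 to GGAAGT, Meox2 held 1 to TATAAA and Rbp7 held none of the 4. Among all 32,851 promoters of the same length, AGGTCA was found in 14.0%, TAATTA in 4.84%, TATAAA in 12.4% and GGAAGT in 19.7%. A match is a run of letters and not a measured binding site.

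Cluster 1 made up 3.33% of all UMIs and held 37.0% of the UMIs of the 10 genes. Their summed level was 92.4 (91.8–93.1) UMIs per 10,000 in cluster 1, with 85.7, 81.7 and 109.8 in library suffixes 1, 2 and 3. In the other 6 clusters it lay between 3.11 in cluster 6 and 8.84 in cluster 4. Against clusters 0 and 2 together, the log2 ratio of cluster 1 was 4.13, and 2.78 without Fabp4, the gene with the most UMIs. Cluster 1 ranked first for 9 of the 10 genes, and for 8 of these every library suffix lay above those of the next cluster. The exceptions were Lpl, which was highest in cluster 5, and Tcf15, whose library values in cluster 1 overlapped those in cluster 2.

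**Figure D1:**
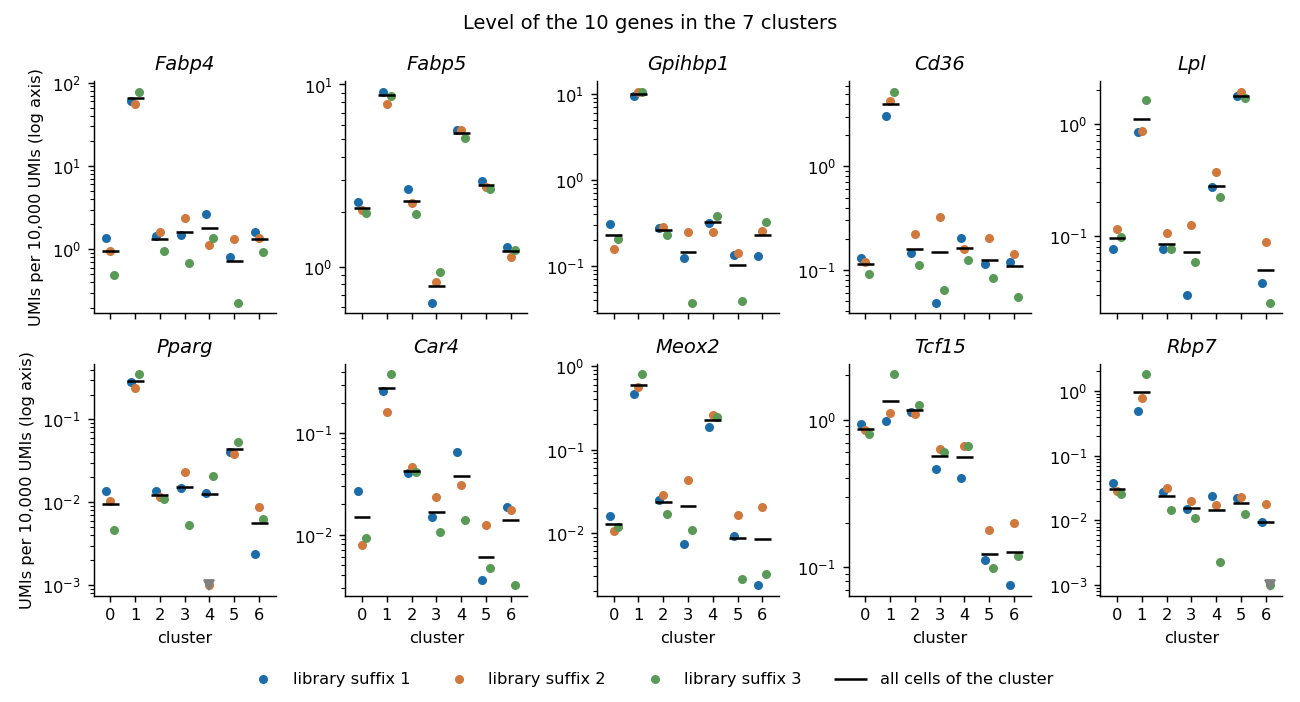
Level of each of the 10 genes in the 7 clusters in UMIs per 10,000 UMIs on a log axis, with a line for all cells of the cluster and points for the 3 library suffixes. Grey triangles at the lower edge mark libraries with 0 UMIs, and cluster 1 lies above all other clusters for every gene but Lpl and, by overlap of the libraries, Tcf15.

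In the comparison of single genes, a gene counted as higher in cluster 1 if its level was at least 2-fold higher in sums and higher in each library suffix. Against cluster 2, the largest endothelial cluster, 9 of the 10 genes were higher and none was lower, whereas 20.0% of 9,191 genes with at least 0.1 UMIs per 10,000 were higher and 10.4% were lower. Against cluster 0, the endothelial cluster with the highest level of the arterial gene Gja5, 9 of the 10 were higher and none lower, beside 14.1% higher and 11.1% lower of 9,347 genes. The gene that did not meet the rule was Tcf15 in both comparisons. Genes entered if either cluster reached the minimum, and Lpl, Pparg, Car4, Meox2 and Rbp7 did so through cluster 1 alone, so that they could hardly be called otherwise and their calls carry no weight. Of the other 5 genes, which reached it in clusters 0 and 2 as well, 4 were higher in both comparisons. The 10 genes were chosen with earlier results of these data known, so that these counts beside the shares over all genes are descriptions only.

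The lipase and its anchor did not share a pattern. Gpihbp1 (ENSMUSG00000022579, chr15:75596628-75599481 on GRCm38) had a level of 10.1 (9.89–10.3) in cluster 1, with 9.40, 10.7 and 10.7 in the 3 suffixes. It stood at 0.102 to 0.324 elsewhere, and all libraries of the other clusters lay below those of cluster 1. Lpl (ENSMUSG00000015568, chr8:68880491-68907448) had a level of 1.78 (1.74–1.81) in cluster 5, with 1.77, 1.93 and 1.68 in the suffixes, and of 1.09 (1.02–1.17) in cluster 1, with 0.845, 0.856 and 1.62. The libraries of the 2 clusters did not overlap, and the log2 ratio of cluster 1 to cluster 5 was -0.70 (-0.80 to -0.60). By suffix it was -1.06, -1.17 and -0.06, so that the 2 clusters were nearly level in suffix 3. Compared with cluster 2, where Lpl was at 0.0848, it was 12.9-fold higher in cluster 1 and 20.9-fold higher in cluster 5.

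Cluster 5 had UMIs of both macrophage and granulocyte markers, and Lpl was high in the cells with the former. After 5,000 UMIs had been drawn from every cell, its level was 3.12 (2.94–3.32) in 685 cells of cluster 5 with a UMI of the macrophage gene C1qb and none of the granulocyte gene Mpo. It was 0.628 (0.512–0.762) in 325 cells with Mpo and without C1qb, and 0.481 (0.400–0.575) in 507 cells with neither. The 51 cells with both had 2.59. The suffix values were 3.03, 3.11 and 3.32 in the first group and at most 0.761 in the cells without C1qb, so that these did not overlap. Of the C1qb cells, 61.2% (57.4–64.8%) had an Lpl UMI, and of the Mpo cells, 12.0% (8.67–16.0%). The remaining fatty acid genes did not set these cells apart to the same degree. Cd36 was at 0.304 in the C1qb cells and 0.0985 in the Mpo cells with overlapping suffix values, and Fabp5 was at 2.63 and 2.84.

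Cd36 (ENSMUSG00000002944, chr5:17781690-17888801), the fatty acid receptor, had a level of 4.04 (3.91–4.18) in cluster 1, with 3.06, 4.29 and 5.30 in the suffixes. Its highest level elsewhere was 0.164, in cluster 4. The level in cluster 1 was 25.6-fold that of cluster 2, with log2 ratios of 4.40, 4.27 and 5.56 by suffix, and all libraries of cluster 1 lay above those of every other cluster.

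The carriers differed in how far they were limited to cluster 1. Fabp4 (ENSMUSG00000062515, chr3:10204088-10208576) reached 65.0 (64.5–65.6) in cluster 1, with 60.8, 55.2 and 78.0 in the suffixes. Cluster 4 came next, with 2.63, 1.12 and 1.38, and the libraries of all other clusters were at 2.38 or below. Its neighbour on the chromosome, Fabp5 (ENSMUSG00000027533, chr3:10012548-10016607), had 8.71 (8.51–8.91) in cluster 1, with 9.14, 7.84 and 8.69, and 5.43 (5.29–5.56) in cluster 4, with 5.62, 5.62 and 5.08. Fabp4 was thus 49.1-fold higher in cluster 1 than in cluster 2 and Fabp5 3.83-fold. Fabp5 was the more widespread of the pair, since it stood at 1.22 to 2.80 in clusters 0, 2, 5 and 6 and fell below 1 UMI per 10,000 in cluster 3 alone, at 0.779. Fabp5 has near-identical copies in the mouse genome and its counts are uncertain to the extent that reads were shared with them.

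Rbp7 (ENSMUSG00000028996, chr4:149449687-149454978), the retinol-binding protein, had a level of 0.970 (0.905–1.04) in cluster 1 and of 0.00928 to 0.0310 elsewhere. Its values in cluster 1 varied most between libraries, with 0.488, 0.781 and 1.81 in suffixes 1, 2 and 3. Without suffix 3 the level was 0.583, still above every library of the other clusters.

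Among the transcription factors, Pparg and Meox2 were highest in cluster 1 and Tcf15 was shared between the endothelial clusters. Pparg (ENSMUSG00000000440, chr6:115360951-115490399) had 0.295 (0.259–0.334) in cluster 1, with 0.280, 0.242 and 0.353 in the suffixes. Cluster 5 came next at 0.0442 (0.0391–0.0498), with 0.0405, 0.0380 and 0.0527, which was 3.65-fold the level in cluster 2 with no overlap of libraries. Meox2 (ENSMUSG00000036144, chr12:37108540-37179534) had 0.594 (0.543–0.649) in cluster 1, with 0.467, 0.560 and 0.804. Its second site was cluster 4, the cluster with collagen genes, where the level was 0.226, with 0.187, 0.262 and 0.245. That was 9.76-fold the level in cluster 2, and the libraries of clusters 1, 4 and 2 formed 3 separate ranges.

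Tcf15 (ENSMUSG00000068079, chr2:152143561-152149097), the partner of Meox2, had 1.34 (1.27–1.42) in cluster 1, with 0.979, 1.11 and 2.04 in the suffixes. It had 1.16 (1.14–1.18) in cluster 2, with 1.12, 1.09 and 1.25, and 0.868 (0.817–0.921) in cluster 0, with 0.941, 0.854 and 0.804. The log2 ratio of cluster 1 to cluster 2 was 0.21 in sums, and -0.20, 0.03 and 0.70 by suffix, a difference smaller than the spread between the libraries. Without suffix 3, cluster 1 stood at 1.02 and cluster 2 at 1.11, so that cluster 2 ranked first. Tcf15 fell to 0.122 and 0.126 in clusters 5 and 6, where no library exceeded 0.198.

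Car4 (ENSMUSG00000000805, chr11:84957786-84966044), the capillary carbonic anhydrase, had 0.278 (0.244–0.316) in cluster 1, with 0.262, 0.162 and 0.383 in the suffixes. Cluster 2 came second at 0.0426 (0.0393–0.0462), with 0.0402, 0.0462 and 0.0418. Cluster 4 followed at 0.0380, with 0.0651, 0.0310 and 0.0139, so that its libraries overlapped those of cluster 2, and without suffix 3 it stood above cluster 2, at 0.0519 against 0.0431. Cluster 0 lay lower at 0.0151, which was 0.354-fold the level in cluster 2.

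Low shares were also seen outside cluster 1, including clusters led by markers of other cell types. At 5,000 UMIs per cell, Fabp4 was detected in 91.9% (exact binomial interval 89.8–93.8%) of 745 cells of cluster 1, and also in 36.8% (30.7–43.3%) of 239 cells of cluster 3, which had germ cell markers, and in 19.4% (15.2–24.3%) of 309 cells of cluster 6, which had megakaryocyte markers. Before drawing, the median depths of these clusters were 7,875, 23,684 and 32,186 UMIs. The shares in clusters 3 and 6 rested largely on suffix 2. They were 13.0%, 52.9% and 18.8% in the 3 suffixes of cluster 3, and 9.26%, 30.3% and 8.16% in those of cluster 6. In clusters 0, 2, 4 and 5 the share of cells with Fabp4 was 16.6 to 20.2%. Suffix 2 was highest there too, with 10.0%, 31.6% and 7.69% in cluster 5 and 15.8%, 27.3% and 12.7% in cluster 2. In cluster 4 the suffixes were closer, with 18.7%, 19.7% and 13.3%. In cluster 2, Fabp4 was found together with Cd36 in 266 cells, 3.42 times the product of the shares. Whether free RNA had a part in the shares or in this ratio was not tested. Gpihbp1 was found in 63.1% of the cells of cluster 1 and in 4.88 to 11.0% elsewhere, and Cd36 in 49.9% and in 5.12 to 11.7%.

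The ratio of counts to those of Fabp4 varied less between clusters for Gpihbp1 and Cd36 than for other members. Per 100 UMIs of Fabp4, there were 15.5 (15.2–15.9) of Gpihbp1 in cluster 1 and 9.04 to 23.8 in the other clusters, and 6.22 (6.01–6.44) and 8.02 to 17.1 of Cd36. Tcf15 had 2.07 per 100 UMIs of Fabp4 in cluster 1 but 91.2 in cluster 0 and 87.4 in cluster 2. Lpl had 243.8 in cluster 5 against 1.68 in cluster 1, and Meox2 had 12.6 in cluster 4 against 0.914. The same 3 genes were found in more cells there than in clusters 3 and 6. Tcf15 was found in 31.9% and 38.6% of the cells of clusters 0 and 2, against 20.1% and 8.41% in clusters 3 and 6. Lpl was found in 34.9% of cluster 5, against 4.18% and 3.88%, and Meox2 in 7.23% of cluster 4, against 2.09% and 0.324%.

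The shares of the other genes in cluster 1 were 69.1% for Fabp5, 34.5% for Tcf15, 28.5% for Lpl, 23.6% for Meox2, 19.6% for Rbp7, 12.9% for Pparg and 8.59% for Car4. Fabp5 went against the order of levels, with a share of 74.8% (70.8–78.5%) in cluster 4 and 69.1% (65.7–72.4%) in cluster 1, and no order was read from its shares.

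Across the 21 levels given by 7 clusters and 3 suffixes, the correlation of a gene with the mean of the other 9 was 0.895 to 0.967 for Fabp4, Gpihbp1, Cd36, Pparg, Car4, Meox2 and Rbp7, 0.763 for Fabp5, 0.490 for Lpl and 0.471 for Tcf15. The points share clusters and libraries and the values describe likeness only. Among 10,978 other genes, the 5 most like the mean profile of the 10 were Klf9 (Pearson r = 0.986), Bhlhe40 (0.983), Plscr4 (0.982), H2-Q7 (0.981) and Unc45b (0.981). Klf9 had a level of 1.10 in cluster 1 and at most 0.137 in another cluster, and Bhlhe40 had 1.01 and at most 0.123.

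Cluster 1 also differed from cluster 2 in other genes of fatty acid handling, though less uniformly. Of 36 such genes 29 had a sufficient level, and 13 were higher, 4 lower and 12 neither against cluster 2, beside 20.0% higher and 10.4% lower over all genes. Against cluster 0, 10 were higher and 3 lower of 28, beside 14.1% and 11.1%. The lower genes were thus near the share over all genes. Angptl4, an inhibitor of LPL, was at 1.75 in cluster 1 and 0.0514 in cluster 2, and Mgll, which cleaves monoglycerides, was at 2.55 and 0.0910. Plin2, a coat protein of lipid droplets, was at 6.37 and 0.663. The hormone-sensitive lipase Lipe, the receptor Lrp1 and Cpt1a, which brings fatty acids into mitochondria, had log2 ratios of 3.77, 4.34 and 2.93.

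Of 14 other genes of heart capillary endothelium, 11 were higher in cluster 1 than in cluster 2 and none lower. Over all genes, 20.0% were higher and 10.4% lower. Among the 11, Aqp1, Aqp7, Btnl9, Cd300lg, Slc28a2 and Timp4 reached the minimum through cluster 1 alone, and their calls carry no weight. Ly6a had 9.22 against 0.162, Ly6c1 3.98 against 0.155 and Aqp1 2.50 against 0.0903. Cldn5, at 9.87 against 6.58, Kdr, at 3.83 against 4.94, and Ramp2, at 5.03 against 8.42, were not called. Against cluster 0, 11 were higher and Ramp2 was lower, at 5.03 against 18.2. Over all genes, 14.1% were higher and 11.1% lower. Of these 11, Aqp7, Btnl9, Cd300lg, Kcna5, Rgcc, Slc28a2 and Timp4 reached the minimum through cluster 1 alone, and their calls carry no weight. Markers of other cells moved with cluster 1 as well. All 5 pan-leukocyte genes and the 6 macrophage genes with a sufficient level were higher there than in cluster 2, among them Tyrobp at 1.72 against 0.0265 and Lyz2 at 12.0 against 0.0303. So were all 10 inflammatory genes, such as Cxcl2 at 18.3 against 0.0721. Of these leukocyte, macrophage and inflammatory genes, only Laptm5, Icam1, Nfkbia and Socs3 reached the minimum in cluster 2 as well. The calls of the others could hardly go otherwise and carry no weight. Among stromal genes Dcn was higher, at 2.35 against 0.0402, and Col1a1 was at 0.0262 and 0.0169. The cardiomyocyte genes Myl2, at 0.156 against 0.00512, and Tnnt2, at 0.199 against 0.0666, were higher too. So were the pericyte genes Kcnj8, at 0.300 against 0.00498, and Rgs5, at 0.537 against 0.0278. The pericyte gene Abcc9 was not called, at 0.310 against 0.251, and Notch3 was below the minimum, at 0.0392 against 0.0459. The granulocyte gene S100a8 was at 0.602 against 0.0138, while Mpo was at 0.0166 and 0.0199. The platelet gene Pf4 had a log2 ratio of 3.51, and the other platelet genes of the list did not reach the minimum. Dcn, Myl2, Tnnt2, Kcnj8, Rgs5 and S100a8 reached it through cluster 1 alone, and their calls carry no weight. The part of these cell types in the levels of the 10 genes was not tested beyond the leukocyte markers. None of the 6 adipocyte genes reached 0.1 UMIs per 10,000 in any cluster, and Adipoq and Plin1 had at most 0.00238.

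The leukocyte markers were in a minority of cluster 1. UMIs of at least 2 pan-leukocyte genes were found in 55 of 745 cells at 5,000 UMIs. In the other 690 cells Fabp4 was at 79.0 (78.0–79.9), against 24.5 (22.7–26.4) in the 55 cells, and Gpihbp1 was at 11.7 and 2.15. Neither gene thus lost level when these cells were left out. Fabp5 went the opposite way with 7.57 (7.28–7.87) in the 690 cells and 19.7 (18.0–21.4) in the 55, and the suffix ranges of 6.71–9.36 and 18.3–20.6 did not overlap. Cd36 was detected in 48.4% and 69.1% of the cells although its level was 4.90 and 3.49.

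In single cells of cluster 1, the number of the 10 genes detected at 5,000 UMIs had a median of 4 and quartiles of 2 and 6. The median was 3, 4 and 4 in the 3 suffixes, and 1 in every other cluster. At least 3 of the genes were detected in 70.3% (66.9–73.6%) of the cells of cluster 1 and in 13.9% (13.0–14.9%) of cluster 2, and at least 5 in 39.3% (35.8–42.9%) and 2.21% (1.84–2.64%). At least 7 were found in 103 cells of cluster 1, or 13.8% (11.4–16.5%), and all 10 in 3 cells. This last share rested on suffix 3, where it was 25.1% against 9.14% and 8.38% in suffixes 1 and 2, and it was 8.88% without suffix 3. The numbers formed a continuous range without a gap, with 139, 120, 111 and 106 cells at 2, 3, 4 and 5 genes.

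**Figure D2:**
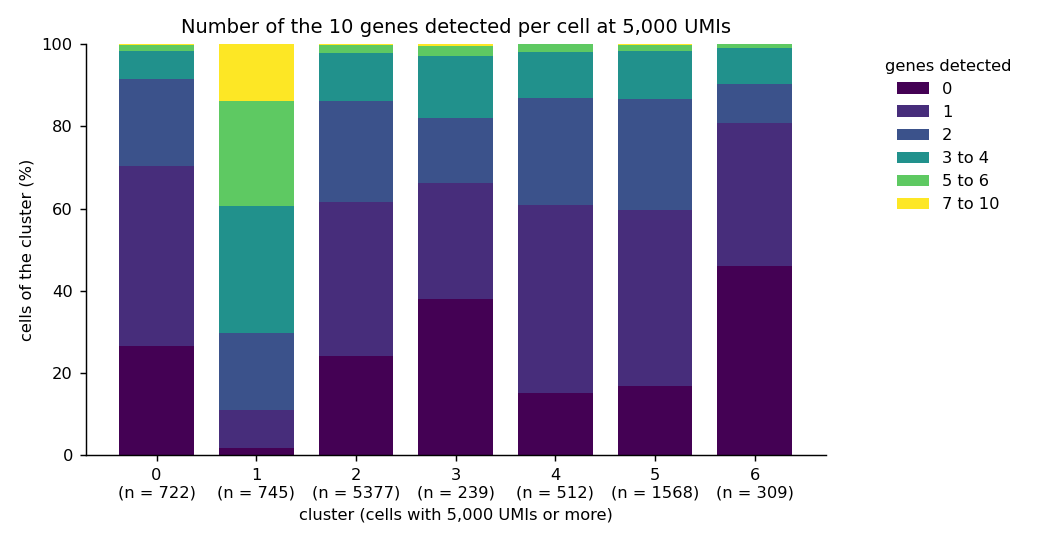
Share of the cells of each cluster, in percent, by how many of the 10 genes were detected at 5,000 UMIs per cell. Cluster 1 has 39.3% of its cells at 5 genes or more, and the other clusters have at most 2.93%.

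All 45 pairs of the 10 genes were detected together in more cells of cluster 1 than the product of their shares gives. The share of pairs of other genes that do so in these cells was not determined. The count is thus not read as particular to the 10 genes. The ratio of observed to expected cells was 1.02 to 2.55 with a median of 1.32, and 43 pairs were above 1 in each suffix. The exceptions were Pparg with Meox2 (0.982 in suffix 3) and Car4 with Rbp7 (0.493 in suffix 2, from 1 cell). Pairs with Fabp4 had little room to exceed 1, since it was in 91.9% of cells, and lay between 1.02 and 1.09. Pairs of the scarcer genes were higher. The partners Meox2 and Tcf15 were found together in 108 cells where 60.7 were expected, a ratio of 1.78 with 1.88, 1.69 and 1.61 in the suffixes. Cd36 and Rbp7 were together in 130 cells against 72.9 (ratio 1.78, suffixes 2.02, 1.55 and 1.66), so that 89.0% of the cells with Rbp7 also had Cd36. Car4 and Tcf15 were together in 48 against 22.1 (2.17, suffixes 2.64, 2.28 and 1.67), and Car4 and Rbp7 in 32 against 12.5 (2.55, and 1.78 without suffix 1). Lpl, though highest in cluster 5, was together with Gpihbp1 in 176 of the 212 cells of cluster 1 in which it was detected, with a ratio of 1.32.

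**Figure D3:**
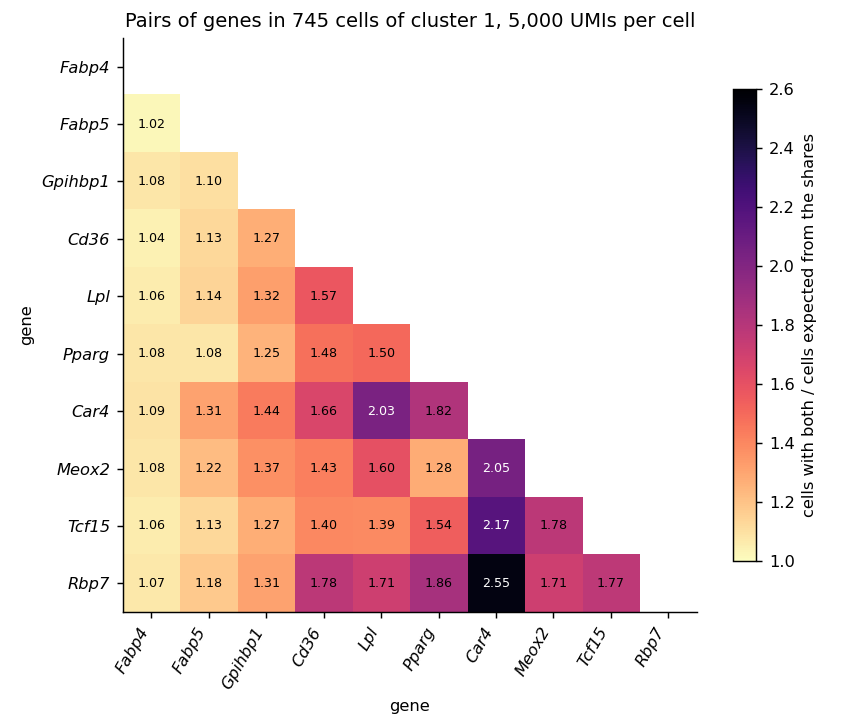
Observed cells with both genes divided by the cells expected from their shares, for the 45 pairs in 745 cells of cluster 1 at 5,000 UMIs per cell. Every square is above 1, from 1.02 for Fabp4 with Fabp5 to 2.55 for Car4 with Rbp7.

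The pairs were above the product of shares in other sets of cells as well. In 684 cells of cluster 1 with a Cdh5 UMI, 45 of 45 ratios were above 1 with a median of 1.28, and in 690 cells without 2 or more pan-leukocyte genes 45 of 45 with a median of 1.32. In 187 cells with at most 2 UMIs of the inflammatory list, 45 of 45 were above 1 with a median of 1.19. Without the cells whose barcode was shared between libraries, 45 of 45 were above 1 with a median of 1.32. In cluster 2, where the genes were scarce, 42 of 45 ratios were above 1 with a median of 2.57, and 35 were so in each suffix.

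The number of the 10 genes detected moved with other genes of the cell in cluster 1. The 10 genes themselves rise with that number by construction and are not described. The 14 other heart capillary genes had a median of 8 UMIs of 5,000 in 221 cells with 0 to 2 of the genes, 17 in 231 cells with 3 to 4, 25 in 190 cells with 5 to 6 and 59 in 103 cells with 7 to 10. Within suffixes the last group had 43, 49 and 66, above the 24, 25 and 25.5 at 5 to 6 genes. The 7 pan-endothelial genes rose less, with medians of 15, 22, 25 and 26 UMIs. The 10 inflammatory genes went down, with medians of 18, 6, 5 and 2 UMIs, and 20, 17 and 14 in the suffixes at 0 to 2 genes against 3, 3 and 2 at 7 to 10. The median depth before drawing was 8,911, 8,483, 8,372 and 6,688 UMIs.

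**Figure D4:**
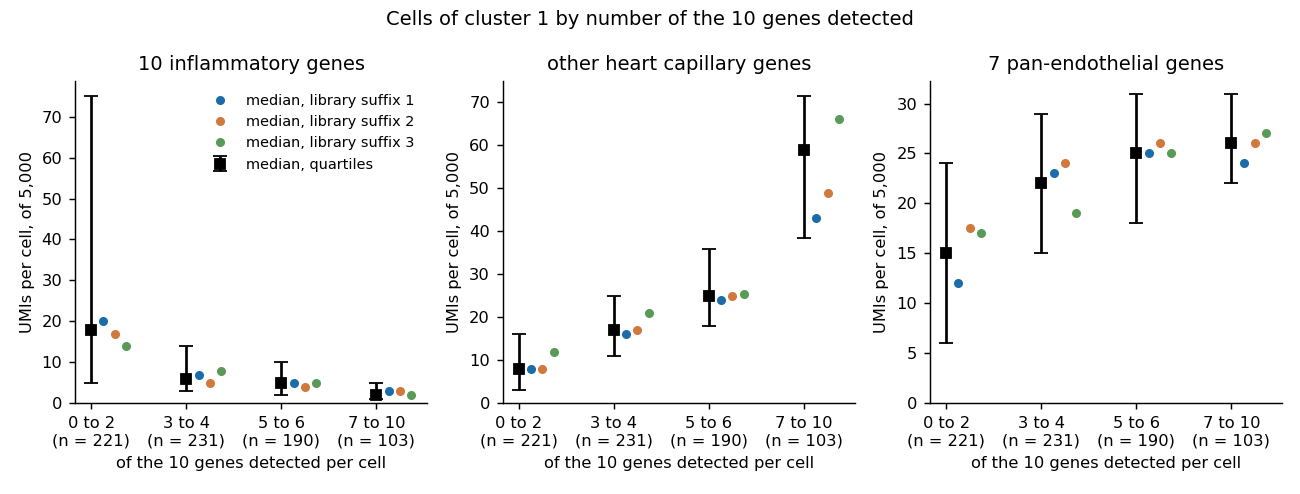
Summed UMIs per cell, of 5,000, for 3 gene lists in cells of cluster 1 grouped by how many of the 10 genes were detected, as medians with quartiles (squares and bars) and medians of the 3 library suffixes (points). The inflammatory median goes from 18 to 2 UMIs and the heart capillary median from 8 to 59.

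Spearman's rho between the number of the 10 genes detected and the list sums was -0.42 for inflammatory genes over 745 cells, with -0.43, -0.37 and -0.40 in the suffixes, 0.68 for heart capillary genes, with 0.61, 0.62 and 0.78, and 0.39 for pan-endothelial genes. The cells share libraries and a fixed total of 5,000 UMIs, in which more UMIs of one list leave fewer for another, and these values are descriptions. Cxcl2, a neutrophil chemokine, had a level of 41.2 in cells with 0 to 2 of the genes and of 1.67 in cells with 7 to 10, and Ccl2, a monocyte chemokine, 26.0 and 0.0388. Lyz2 went from 16.0 to 0.0583 and Dcn from 5.25 to 0 UMIs, for which the upper limit of the exact Poisson interval was 0.0716. Timp4 went from 0.0181 to 5.01 and Ly6c1 from 0.543 to 22.8. Whether leukocyte or stromal RNA had a part in these differences was not tested.

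Those of the other fatty acid genes that were followed along the same number differed in direction. Mgll had levels of 0.606, 1.43, 3.43 and 12.4 in cells with 0 to 2, 3 to 4, 5 to 6 and 7 to 10 of the 10 genes, and Lipe 0.127, 0.139, 0.358 and 0.816. Plin2 went the opposite way with 6.52, 5.85, 4.93 and 1.57. Angptl4 had 1.43, 2.18, 2.20 and 1.03, and Cpt1a 0.217, 0.346, 0.474 and 0.311, and thus neither had a steady direction. All 3 of Angptl4, Mgll and Plin2 had a higher level in cluster 1 than in cluster 2. Within cluster 1, the level of Mgll was high where the 10 genes were many and that of Plin2 where they were few. Of the 103 cells with 7 to 10 genes, 57 were in suffix 3, and values by suffix are not given for these genes.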

How the data were processed

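Cells were profiled by 10x 3′ single-cell RNA-seq. Reads were aligned to mm10 by the authors in Cell Ranger 3.1.0, who combined the libraries with removal of batch effects and kept singlets by a stated minimum of 5,000 UMIs, below which 90 of the 9,562 deposited cells lay. No doublet caller was run here. The deposited files held UMI counts per gene and cell, which the authors had not normalised, a matrix of natural log values of counts per 10,000 (CPTT), used only to check the scaling, and a cluster number per cell. The authors' notes also name Seurat 3.1.5.

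UMIs of equally named genes were summed, and levels were computed with Python 3.11.15, numpy 2.4.6, pandas 2.3.3 and scipy 1.17.1. For shares and pairs, 5,000 UMIs were drawn from each cell without replacement, which left out 54 cells of cluster 1. Intervals (95%, exact Poisson or Clopper-Pearson) cover counting error only. The calls required a 2-fold ratio, the same direction in all 3 library suffixes and 0.1 UMIs per 10,000 in either cluster. No test was made, because the clusters came from the counts compared and no label ties a library suffix to a pool. The fold calls were tested on simulated counts with known changes and with counting error as the only variation between libraries. Levels, shares, pairs and correlations were not tested in this way. Named were the 10 genes, at most 6 genes per list by the largest absolute log2 ratio of cluster 1 to cluster 2, and the 5 genes most alike in profile. Markers that check the clusters, and genes said to have been named after their values were seen, are further names. Genes and lists were chosen with earlier results of these data known. Promoters came from RefSeq, and gene positions from GENCODE M21.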

Additional observations from a re-analysis of the deposited data

How the results depend on the processing

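The log2 ratio of the summed level of the 10 genes in cluster 1 to clusters 0 and 2 was 4.13, lay between 3.89 and 4.28 with each library suffix left out, was 4.22 from means of CPTT and 4.15 at 5,000 UMIs, and moved to 2.78 without Fabp4. The 9 genes called higher than in cluster 2 were 9 with each suffix left out, beside 19.0 to 20.9% of all genes. They were 5 of 6 at a minimum of 1 UMI per 10,000, beside 20.1%. Against cluster 0 they were 9 to 10, beside 14.1 to 22.0%, and 5 at that minimum, beside 15.4%. The counts include Lpl, Pparg, Car4, Meox2 and Rbp7, whose calls carry no weight. At a minimum of 1, Gpihbp1, Cd36 and Lpl passed through cluster 1 alone, and against cluster 0 so did Fabp4. The 10th gene, Tcf15, was called against cluster 0 without suffix 1, at a fold of 1.5 and from means of CPTT. The median of 4 genes per cell was 4 with each suffix left out, 5 for cells as deposited and 3 at 2000 UMIs per cell. All 45 pairs stayed above the product of shares in each of the 11 alternatives, with median ratios of 1.19 to 1.46. The restriction to Cdh5 cells, the removal of shared barcodes and the limit on inflammatory UMIs were chosen after seeing the data, as was the median without cells with 2 or more pan-leukocyte genes, which was 4. The cause of the moves at other depths was not tested. Levels of single genes moved by more than the spread of libraries in 31 of 70 values from means of CPTT.

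The calls compared the clusters within each library suffix and required the same direction in all 3. No paired test was made, because the clusters came from the counts compared. Values within each library suffix stand beside the pooled ones. At 5,000 UMIs, genes as scarce as Car4 and Pparg were found in 8.59% and 12.9% of the cells of cluster 1 and in 1.26% and 1.67% of cluster 3, and depth limits what their shares can show.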

Other observations

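A small number of cells outside cluster 1 also carried many of the 10 genes. In cluster 2, 119 of 5,377 cells had at least 5 of them at 5,000 UMIs, of which 35, 68 and 16 were in suffixes 1, 2 and 3. In these cells Ly6a had a level of 3.14 and Ly6c1 of 3.61 UMIs per 10,000, against 0.0782 and 0.0882 in 4,627 cells of cluster 2 with 0 to 2 of the genes. Mest, an imprinted gene, stayed at 18.5, close to the 22.5 of those cells and above the 3.95 of the 293 cells of cluster 1 with at least 5 genes. Cxcl2 had 0 UMIs in the 119 cells, against a level of 5.02 in the 293 cells of cluster 1. Plin2 was at 0.706 and 3.75, and Angptl4 at 0.0504 and 1.79. Before drawing, the 119 cells had a median of 12,414 UMIs against 23,506 in the cells with 0 to 2 genes. Whether some of them are doublets was not tested.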
